A study of Homo sapiens with 4 samples.

Results

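The genes examined for H3K27ac in K562 cells were 9 known targets that p53 activates: MDM2, BTG2, GDF15, ZMAT3, SESN1, GADD45A, TP53INP1, RRM2B and PHLDA3. They were taken as a list of symbols and placed by symbol among 20037 protein-coding genes of the RefSeq table for GRCh38.p14 (hg38). The window of a gene was its annotated span extended by 50 kb in each direction, and every peak in these windows was read from both H3K27ac lists. The first library came from K562 cells given 1 uM daunorubicin for 18 h, and the second from K562 cells kept for the same 18 h without it. K562 is a human line from chronic myeloid leukaemia in blast crisis, and daunorubicin is an anthracycline, a DNA intercalator and topoisomerase II poison. Both conditions came with 1 input library each, made with no antibody. H3K27ac, acetylation of lysine 27 of histone H3, marks active promoters and enhancers.

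The transcription factor p53 is stabilised after DNA breaks and activates these genes by binding a pair of short half-sites in their promoters or nearby introns. K562 is known to lack working p53, so other inputs to these loci are of interest in this line. Other factors known to act at genes of this programme include AP-1, ATF4, FOXO3, NF-Y and Sp1. No transcription factor and no RNA was measured in the libraries used here.

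The daunorubicin list held 65118 peaks over 57.0 Mb, and the untreated list 38626 peaks over 36.0 Mb, a ratio of covered length of 1.59. With 1 library per condition no difference below has a replicate check, no p-value is given, and depth is unknown because the lists hold no counts. Each peak carries a score, the authors' own value, used to order peaks within a list. Scores from both lists are set side by side below with no difference read from them. An exception is the alternative setting with a stricter score, which cuts both lists at the same value, 43. Whether that value means the same in both lists was not tested. The median score was 41 in the daunorubicin list and 43 in the untreated list. Of 11 erythroid and K562 marker genes, an end was marked, with a peak no more than 1 kb away, at 10 with daunorubicin and at 9 without it. Of 6 marker genes of other cell types, 3 had such a peak with daunorubicin and 2 without it; CD3E and EPCAM had it in both lists. CDKN2A, in a region known to be deleted in K562, had no peak in either list.

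RefSeq annotated starts and promoter sequences were found for 5 of the 9 members: MDM2, BTG2, GDF15, ZMAT3 and SESN1. Shown here are the 250 bases before 4 annotated starts that the results below return to, 5′ to 3′, with some motif matches in capitals. GC boxes and the antioxidant response element, also found in these stretches, are left in lower case, apart from the bases that this element shares with the AP-1 match. MDM2, the E3 ligase that degrades p53, has an upstream start and an internal start that is the classical p53-responsive promoter. In the upstream MDM2 promoter the capitals mark 2 overlapping CCAAT boxes, 1 on each strand, the motif of NF-Y. In the internal MDM2 promoter they mark, in order, a CCAAT box, an AP-1 match and 2 p53 full sites. In the BTG2 promoter they mark a CCAAT box, and in the GDF15 promoter a CCAAT box and a TATA box. All 4 lie on the plus strand of GRCh38.p14.
MDM2 upstream start, chr12:68807922-68808171: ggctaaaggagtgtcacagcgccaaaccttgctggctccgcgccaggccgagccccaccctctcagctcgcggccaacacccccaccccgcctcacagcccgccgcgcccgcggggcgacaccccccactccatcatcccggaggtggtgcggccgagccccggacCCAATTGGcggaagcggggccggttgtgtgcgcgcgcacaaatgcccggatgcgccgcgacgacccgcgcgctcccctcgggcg
MDM2 internal start, chr12:68808767-68809016: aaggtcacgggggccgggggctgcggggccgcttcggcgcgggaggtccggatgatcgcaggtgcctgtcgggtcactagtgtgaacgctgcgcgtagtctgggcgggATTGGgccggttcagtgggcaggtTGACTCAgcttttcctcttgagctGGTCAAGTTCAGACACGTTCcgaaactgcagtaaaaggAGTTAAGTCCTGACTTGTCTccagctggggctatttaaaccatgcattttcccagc
BTG2 start, chr1:203305269-203305518: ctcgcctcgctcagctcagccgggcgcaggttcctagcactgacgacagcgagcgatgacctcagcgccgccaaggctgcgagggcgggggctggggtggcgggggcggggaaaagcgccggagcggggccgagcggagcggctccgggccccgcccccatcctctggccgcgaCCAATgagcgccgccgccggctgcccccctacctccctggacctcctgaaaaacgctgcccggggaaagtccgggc
GDF15 start, chr19:18385908-18386157: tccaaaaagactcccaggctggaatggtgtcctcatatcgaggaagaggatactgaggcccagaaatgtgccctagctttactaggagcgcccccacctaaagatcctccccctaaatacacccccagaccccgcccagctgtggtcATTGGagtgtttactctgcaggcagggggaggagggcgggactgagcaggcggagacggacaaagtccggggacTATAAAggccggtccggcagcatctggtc

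The p53 full site, 2 adjacent half-sites of the p53 consensus with no spacer, was searched with at most 3 mismatches in 20 bases. In the internal MDM2 promoter the 2 matches ended 75 and 37 bases before the start and had 2 and 3 mismatches. SESN1 had 1 match with 3 mismatches, its leading half-site exact, before its most internal start on the minus strand, shown here with its flanks (chr6:109009013-109009042): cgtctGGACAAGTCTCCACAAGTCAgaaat. GDF15 had 1 match with 3 mismatches that began 28 bases after the start, outside the stretch printed above. BTG2 and ZMAT3 had none in these windows. Of 35116 RefSeq promoter windows of 300 bases, running from 250 bases before a start to 50 after it, 5.2% held such a match, and 0.649% did with at most 2 mismatches, which among the members left MDM2 alone.

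Among the other motifs, read on both strands in the same windows, GC boxes (GGGCGG) and CCAAT boxes (CCAAT) were found at all 5 genes with a promoter sequence, in 10 and 9 of their 11 windows. Over all windows the shares were 44.95% and 34.6%. The member windows are not separate promoters. The MDM2 starts 68808172 and 68808177 lie a few bases apart, as do 68809017 and 68809024, so the same boxes count again. All windows came from 27305 genes and were not matched to the members for GC content, so no enrichment is read from these counts. The AP-1 motif TGANTCA was found at MDM2 only, 118 to 112 bases before its internal start, and in 7.71% of all windows. The antioxidant response element TGACNNNGC, held by 13.3% of all windows, was found at MDM2, where it overlaps the AP-1 match, and at SESN1. TATAAA was found at GDF15 only, 29 to 24 bases before its start, against 11.5% of all windows. No member window held TGACGTCA (1.85% of all windows), the ATF4 motif TGATGNAA (3.62%), the E-box CACGTG (7.26%), AGATAA or TGATAA (16.3%), or the ETS motif CCGGAAGT (4.14%). A match is a run of letters, not an occupied site, and no match says only that these letters are not in the window.

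Marked length, the base pairs covered by peaks in a window, was longer with daunorubicin at all 9 members, and 87.4% of protein-coding genes with a peak in either list were longer in the same way. The median difference over the 9 was 2628 bp, with a range of 188 to 4810 bp, and the median over all such genes was 1312 bp. The ratio was at least 1.5 at 4 of 9 members (MDM2, ZMAT3, RRM2B and PHLDA3), and at 37.1% of protein-coding genes with an untreated peak. This count depended on list size. With the 38626 highest-scoring peaks of each list it was 0 of 9, the highest ratio being 1.47, and 17.0% of such genes. With scores of at least 43 in both lists the genes past 1.5 were SESN1 and GADD45A. They were 2 of the 8 members that kept an untreated peak, and 31.6% of all such genes were past 1.5 there. PHLDA3, whose untreated peaks scored 36 and 32, had peaks only with daunorubicin at this cut. The members' median ratio was 1.48, against 1.34 for all genes with an untreated peak and 1.59 for the whole lists.

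**Figure D1:**
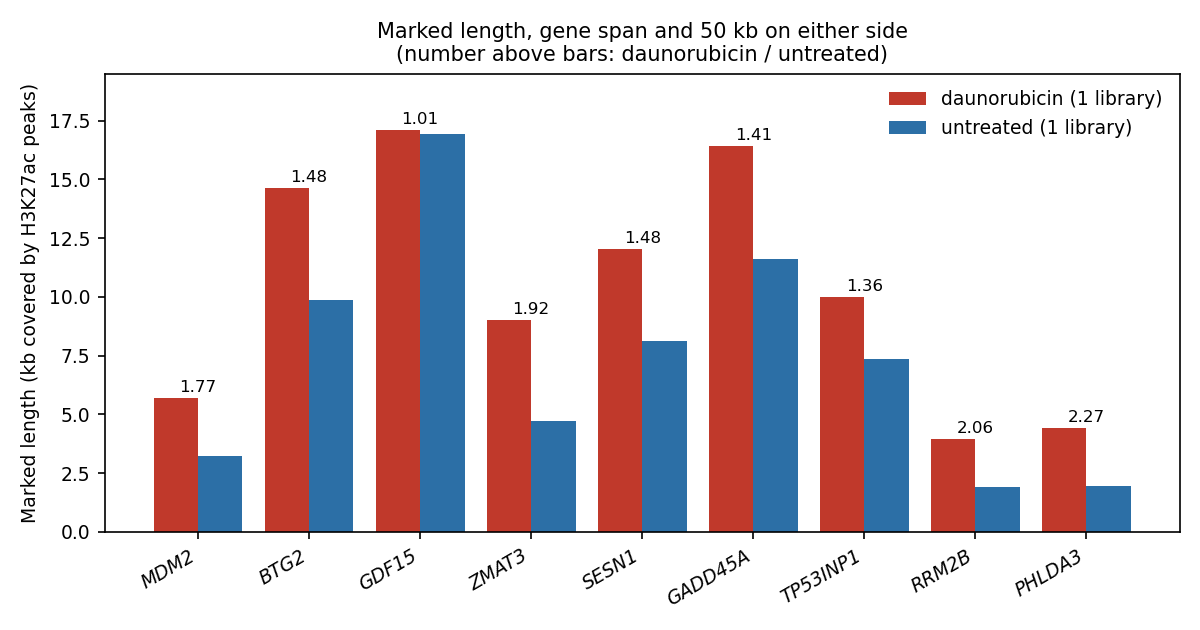
Marked length in kb (vertical axis, from 0) in the window of each gene, in the daunorubicin library (red) and the untreated library (blue), with the ratio above each pair. Bars stand for 1 library each and have no error; the ratio runs from 1.01 at GDF15 to 2.27 at PHLDA3.

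The 9 windows held 101 daunorubicin peaks and 63 untreated peaks. A peak was shared if it overlapped a peak of the other list by at least 1 bp. Of the daunorubicin peaks 35 had no untreated partner, 34.7% (95% Wilson interval 26.1 to 44.3), and 46.3% of the whole daunorubicin list had none. Of the untreated peaks 4 had no daunorubicin partner, 6.35% (2.50 to 15.2), and 10.7% of the whole untreated list had none. Taking as many peaks from each list, by score, gave 12 unshared daunorubicin peaks and 11 unshared untreated peaks. Lists of equal size by themselves bring the 2 counts close, so nothing is read from their likeness. The intervals cover counting error only and treat peaks of 1 window as independent. Peaks called only with daunorubicin stood at all 9 members, and at 74% of all protein-coding genes in the same kind of window. Peaks called only in untreated cells stood at 2 members, MDM2 and GDF15, and at 30.1% of all protein-coding genes. With equal numbers of peaks each kind stood at 6 of the 9 members: MDM2, ZMAT3 and TP53INP1 had no peak called only with daunorubicin, and SESN1, GADD45A and RRM2B none called only in untreated cells. The shares of all genes were then 45.3% with a daunorubicin-only peak and 49.0% with an untreated-only peak. No input library had a peak in any of the 9 windows.

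The 35 peaks called only with daunorubicin were for the most part not at the ends of the members: 13 lay above the gene, 13 below it, 6 in the gene body and 3 within 1 kb of an annotated end. Shares of these places over all genes were not computed, so the placing is not read as particular to the members. The 35 had a median score of 26, the same value as over all unshared peaks of that list. Of the 35, 6 scored above the list median of 41, and of all 30150 unshared peaks of that list 5802 did. Those 6 were beside GDF15 (70), SESN1 (63), RRM2B (55), PHLDA3 (51), GADD45A (50) and BTG2 (42).

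**Figure D2:**
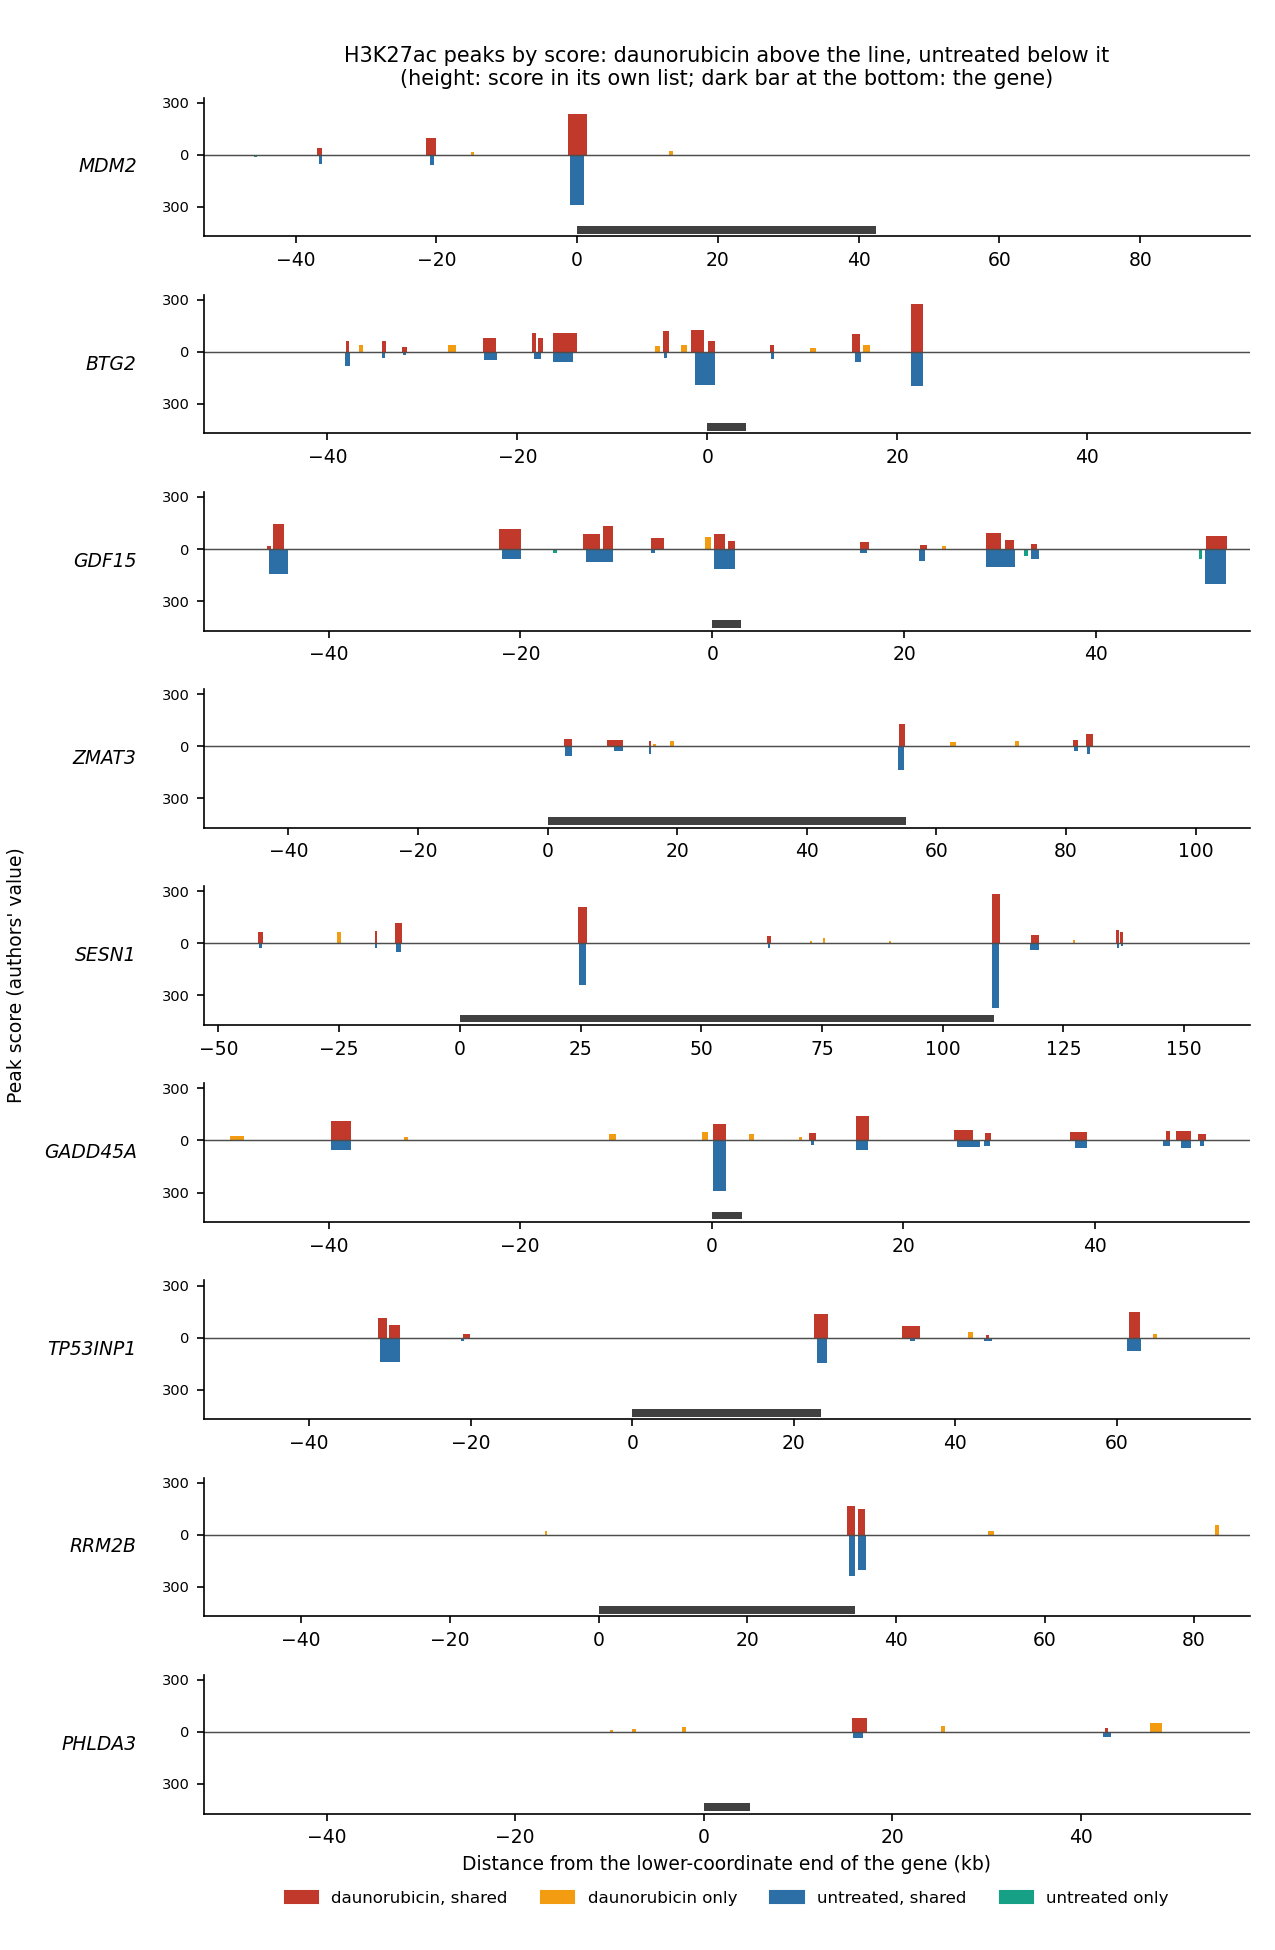
Every H3K27ac peak in the 9 windows, by distance in kb from the lower-coordinate end of the gene (horizontal axis), with bar height giving the score; daunorubicin peaks point up and untreated peaks down, unshared peaks have their own colours, and the dark bar is the gene. Scores belong to separate lists, so heights compare within a direction; unshared peaks are mostly short bars away from the genes.

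An end was marked, with a peak within 1 kb, in both libraries at 8 of 9 members, and at 57.6% of all protein-coding genes. PHLDA3 was the exception and had no such peak in either list. The end peak was the highest-scoring of its window in the daunorubicin list at 4 of 8 members (MDM2, ZMAT3, SESN1 and RRM2B), and at 46.1% of all genes with an end marked in that list. In the untreated list it was the highest at 6 of 8, the same 4 with GADD45A and TP53INP1, and at 52.3% of all genes. The lists differ in length, so the orders stand side by side with no change read from them. Within its own list, the highest end peak stood at score percentile 96.8 with daunorubicin and 93.8 without it at MDM2. In that order the values were 98.5 and 97.8 at SESN1, 85.8 and 77.7 at ZMAT3, and 91.7 and 89.2 at RRM2B. They were 87.5 and 79.0 at TP53INP1, 85.2 and 84.1 at BTG2, and 75.8 and 73.9 at GDF15. At GADD45A the order was the other way, 79.4 and 93.7. Percentiles too depend on list length, so no change is read from them. Over all 9 windows, peaks at an end or annotated start of the member had a median score of 124 in the daunorubicin list and peaks elsewhere 41.5. In the untreated list the medians were 220 and 41. Of the peaks elsewhere, 16 of 86 with daunorubicin and 14 of 53 without it lay within 1 kb of an end of another gene. Neither these medians by place nor these shares were computed over all genes, so none of them is read as particular to the members.

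**Figure D3:**
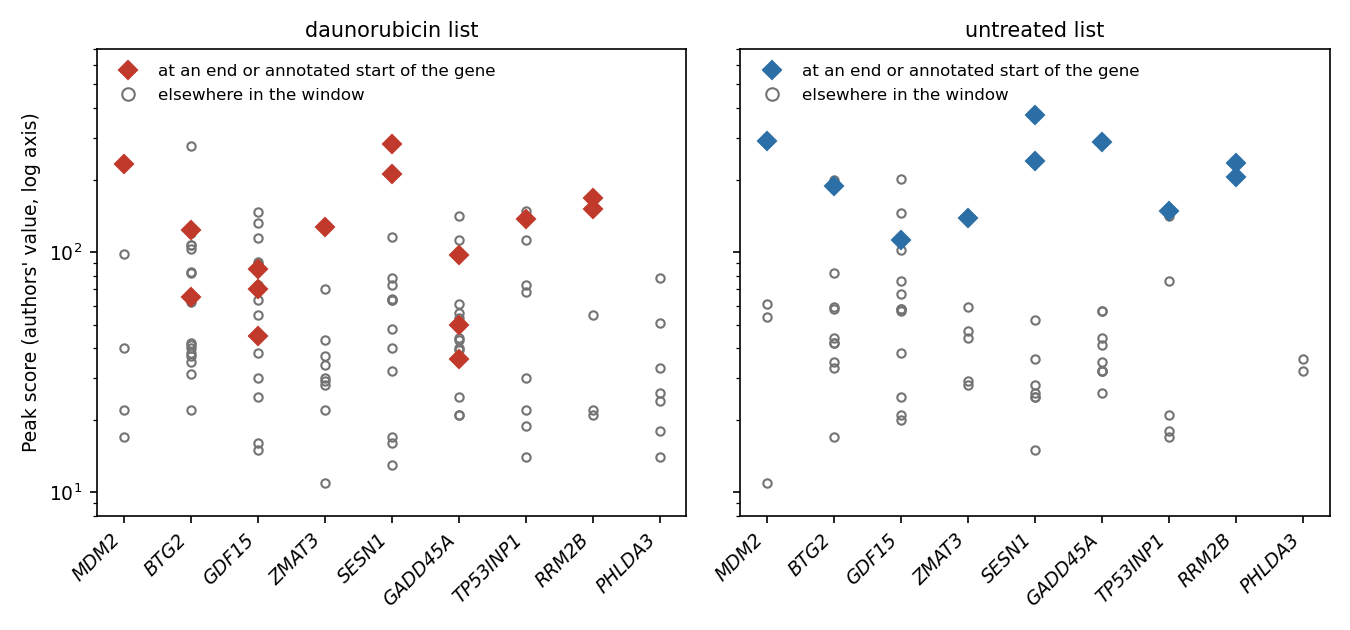
Score of every peak (log axis, the authors' value) at each gene, daunorubicin list on the left and untreated list on the right; filled diamonds are peaks at an end or annotated start of the gene, open circles all other peaks of the window. PHLDA3 has no diamond in either panel, and at GADD45A the highest diamond is the highest point in the untreated panel but stands below 2 circles in the daunorubicin panel.

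The feedback regulator MDM2 (chromosome 12, 68808172 to 68850686) had 5 peaks with daunorubicin and 4 without it, covering 5717 bp and 3226 bp. A single broad peak held all 4 annotated starts in each list, from 68806920 to 68809584 (2665 bp, score 234) with daunorubicin and from 68807122 to 68809197 (2076 bp, score 290) without it. The internal promoter with its AP-1 match and p53 full sites lay inside an acetylated region in both libraries. Of 2 shared peaks below the gene, the nearer, 20096 bp away with daunorubicin, was 1375 bp wide with daunorubicin (score 98) and 522 bp wide without it (score 61). The farther one was 688 bp wide with daunorubicin (score 40) and 389 bp wide without it (score 54). The peaks called only with daunorubicin were weak, at 68793074 to 68793558 (score 17) and, in the gene body, at 68821270 to 68821773 (score 22). The peak called only in untreated cells, at 68762336 to 68762574, scored 11.

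ZMAT3 encodes a zinc finger RNA-binding protein, and PHLDA3 a pleckstrin homology protein that competes with AKT for membrane lipids. ZMAT3 (chromosome 3, 179017223 to 179072513) had 10 peaks over 9030 bp with daunorubicin and 6 peaks over 4712 bp without it. The peak over its outer start, the highest of the window in each list, was 937 bp wide with daunorubicin (score 127) and 898 bp wide without it (score 139). Its other annotated start, inside the gene, lay in no peak, and the nearest was 2123 bp away with daunorubicin and 2009 bp without it. Most of the added length lay away from the starts. A shared peak in the gene body, at 179026403 to 179028862 with daunorubicin, was 2460 bp wide (score 37) against 1470 bp in untreated cells (score 28). Of the other shared peaks, 2 in the gene body scored 43 and 30 with daunorubicin and 59 and 44 without it. The 4 peaks called only with daunorubicin, 2 in the gene body and 2 above the gene, scored 11, 28, 22 and 29 in order of position, all under the list median. A shared peak near PIK3CA-DT, the divergent transcript of PIK3CA, scored 70 with daunorubicin and 47 without it.

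PHLDA3 (chromosome 1, 201464278 to 201469188) had the highest ratio of the 9, 4426 bp with daunorubicin against 1946 bp in untreated cells, from 7 and 2 peaks. The 2 shared peaks lay well above the gene. The nearer, 10861 bp away with daunorubicin, was 1614 bp wide (score 78) with daunorubicin and 1021 bp wide (score 36) without it. The farther, near an end of CSRP1, was 241 bp wide (score 24) with daunorubicin and 925 bp wide (score 32) without it. The 5 peaks called only with daunorubicin included the closest one, 1907 bp below the gene (201462020 to 201462371, score 26), and the widest, 42477 bp above it (201511665 to 201512878, 1214 bp, score 51). The other 3 scored 14, 18 and 33.

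BTG2, an antiproliferative cofactor of deadenylation, and GADD45A, which acts in growth arrest and stress kinase signalling, had the 2 largest differences. BTG2 (chromosome 1, 203305519 to 203309602) had 19 peaks over 14640 bp with daunorubicin and 11 peaks over 9883 bp in untreated cells. Its start lay in a gap between 2 daunorubicin peaks, 307 bp above the end of one (203303786 to 203305212, score 124) and 89 bp below the next (203305608 to 203306283, score 65). In untreated cells 1 peak of 2121 bp covered the start (203304186 to 203306306, score 189). The daunorubicin gap, from the end of the one peak at 203305212 to the start of the next at 203305608, holds the whole promoter stretch printed above, with its CCAAT box 76 to 72 bases before the start.

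The highest score at BTG2 was not at the gene in either list. A shared peak 17388 bp above the gene (203326990 to 203328267 with daunorubicin) scored 278 with daunorubicin and 199 without it, and its widths of 1278 and 1257 bp were nearly equal. Below the gene, a run of shared peaks at LINC01353, a long noncoding RNA gene, scored 107, 83 and 107 with daunorubicin and 42 and 59 without it, where 1 untreated peak was matched by the first 2. Of the 6 peaks called only with daunorubicin, 4 lay below the gene with scores of 40, 42, 35 and 38 and 2 above it with scores of 22 and 41. The other shared peaks scored 31 to 120 with daunorubicin and 17 to 82 without it. Every untreated BTG2 peak had a daunorubicin partner.

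GADD45A (chromosome 1, 67685201 to 67688334) had 16 peaks over 16436 bp with daunorubicin and 10 peaks over 11626 bp without it. A shared peak just inside its lower end had nearly the same width, 1396 and 1407 bp, and scored 97 with daunorubicin and 289 without it. In the untreated list this was far above the next score of the window, 57. In the daunorubicin list 2 peaks scored higher, 142 at the end of GNG12, a G protein subunit gene, and 113 at 67645436 to 67647586. The untreated scores of their partners were 57 each. Below the lower end, a peak at 67684217 to 67684791 (score 50) was called only with daunorubicin, so that this end stood between 2 daunorubicin peaks. Another was called only with daunorubicin near the higher end (67689108 to 67689643, score 36). The other 4 unshared peaks scored 25, 21, 40 and 21. The other shared daunorubicin peaks above the gene scored 39 to 61, and their untreated partners 26 to 44.

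Stress metabolism and redox genes of the list were SESN1, a sestrin that restrains mTORC1, TP53INP1, an autophagy and stress protein, and RRM2B, the p53-inducible ribonucleotide reductase subunit that supplies DNA precursors outside S phase. SESN1 (chromosome 6, 108984309 to 109094846) had 14 peaks over 12040 bp with daunorubicin and 9 peaks over 8112 bp without it. Its outer start, within 1 kb of an end of CEP57L1, carried the highest peak of the window in each list, with a score of 283 and a width of 1596 bp with daunorubicin and a score of 374 and a width of 1511 bp without it. The 2 internal starts, one of them the start with the p53 full site, lay together in 1 peak in each list, of 1774 bp (score 211) with daunorubicin and 1468 bp (score 239) without it. Both SESN1 promoters were thus marked with and without daunorubicin. The shared peaks below the gene scored 64, 73 and 116 with daunorubicin and 28, 25 and 52 without it. In the gene body a shared peak scored 40 with daunorubicin and 25 without it, and above the gene 3 shared peaks scored 48, 78 and 63 with daunorubicin and 36, 26 and 15 without it. Of the 5 peaks called only with daunorubicin, 1 below the gene scored 63 (108958871 to 108959699), and 3 in the gene body and 1 above it scored 13, 32, 16 and 17.

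TP53INP1 (chromosome 8, 94925972 to 94949378) had 9 peaks over 9994 bp with daunorubicin and 6 peaks over 7366 bp in untreated cells. A peak covered its higher end in both lists, 1688 bp wide (score 137) with daunorubicin and 1242 bp wide (score 148) without it. At the ends of CCNE2, a cyclin gene, and NDUFAF6, a complex I assembly factor gene, 2 daunorubicin peaks with scores of 112 and 73 overlapped 1 untreated peak of 2441 bp (score 141). A shared peak 9942 bp above the gene was 2284 bp wide with daunorubicin (score 68) and 688 bp wide without it (score 18). The one 38037 bp above the gene scored 148 with daunorubicin and 76 without it, and was the highest of the window with daunorubicin. The 2 remaining shared peaks were weak, scoring 22 and 14 with daunorubicin and 17 and 21 without it. The 2 peaks called only with daunorubicin scored 30 and 19.

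RRM2B (chromosome 8, 102204501 to 102238961) had 5 peaks over 3962 bp with daunorubicin and 2 peaks over 1922 bp in untreated cells. With daunorubicin, peaks scoring 168 (102237873 to 102238949) and 151 (102239356 to 102240371) stood on either side of its higher end, 12 and 395 bp from it. In untreated cells the end lay inside the first of 2 peaks at these places (score 235), and the second (score 205) began 376 bp above it. The 3 peaks called only with daunorubicin lay away from any gene end within 1 kb, with scores of 21 below the gene and 22 and 55 above it. The last, at 102287281 to 102287908, lay 48320 bp above the gene.

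GDF15 encodes a secreted stress cytokine of the TGF-beta superfamily. It was the member whose marked length differed least (chromosome 19, 18386158 to 18389176), with 17119 bp against 16931 bp in untreated cells, from 16 and 13 peaks. What differed was the shape at its start. With daunorubicin a peak upstream of the start (18385395 to 18386069, score 70) had no untreated partner, and the start stood in the gap between it and the next peak, 89 bp above the one and 224 bp below the other. In untreated cells 1 peak of 2266 bp (score 113) began 143 bp above the start and ran to 18388566, within the gene, and 2 daunorubicin peaks, with scores of 85 and 45, took its place. Of the motifs printed above, the CCAAT box, 103 to 99 bases before the start, lies inside the upstream daunorubicin peak, and the TATA box lies in the gap. Both lie outside the untreated peak.

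Around GDF15, 3 more untreated peaks were each matched by 2 daunorubicin peaks, at PGPEP1, 10350 bp below the gene and 25575 bp above it. Over the 9 windows this was so for 7 untreated peaks of 63, 11.1% (95% Wilson interval 5.49 to 21.2), at GDF15 (4), BTG2 (2) and TP53INP1 (1), and for 4.28% of the whole untreated list. The reverse, 1 daunorubicin peak over 2 untreated peaks, was found for 0 of 101 peaks and for 1.82% of the whole list. The upper bound of the 95% Wilson interval for 0 of 101 was 3.66%. Both intervals treat peaks of 1 window as independent, although 4 of the 7 lay at GDF15. No difference from the whole lists is read from them. The 3 GDF15 peaks called only in untreated cells scored 21, 38 and 57 and lay at an end of PGPEP1, 29535 bp above the gene and at an end of ISYNA1, an inositol synthesis gene. The shared peak at ISYNA1 scored 73 with daunorubicin and 201 without it, the highest of the untreated window. At PGPEP1 the highest daunorubicin peak scored 147, and its untreated partner 146. The other peaks with 1 partner each scored 25 to 115 with daunorubicin and 20 to 67 without it, and the other peak called only with daunorubicin, 20956 bp above the gene, scored 16.

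Across settings, 8 of the 9 members kept a longer marked length with daunorubicin in every one tried, and GDF15 did not. With the 38626 highest-scoring peaks of each list, the difference ran from 468 bp at TP53INP1 to 3620 bp at BTG2 among the 8. The GDF15 difference was -1959 bp there, -1017 bp under a stricter score (at least 43 in both lists) and -463 bp with flanks of 100 kb, while flanks of 10 kb gave 1157 bp. With equal numbers of peaks, 65.3% of all marked protein-coding genes were longer and the median over them was 400 bp. The members' median there was 1502 bp. The share of marked genes that were longer was 78.6% under the stricter score, 79.7% with flanks of 10 kb and 90.8% with flanks of 100 kb.

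**Figure D4:**
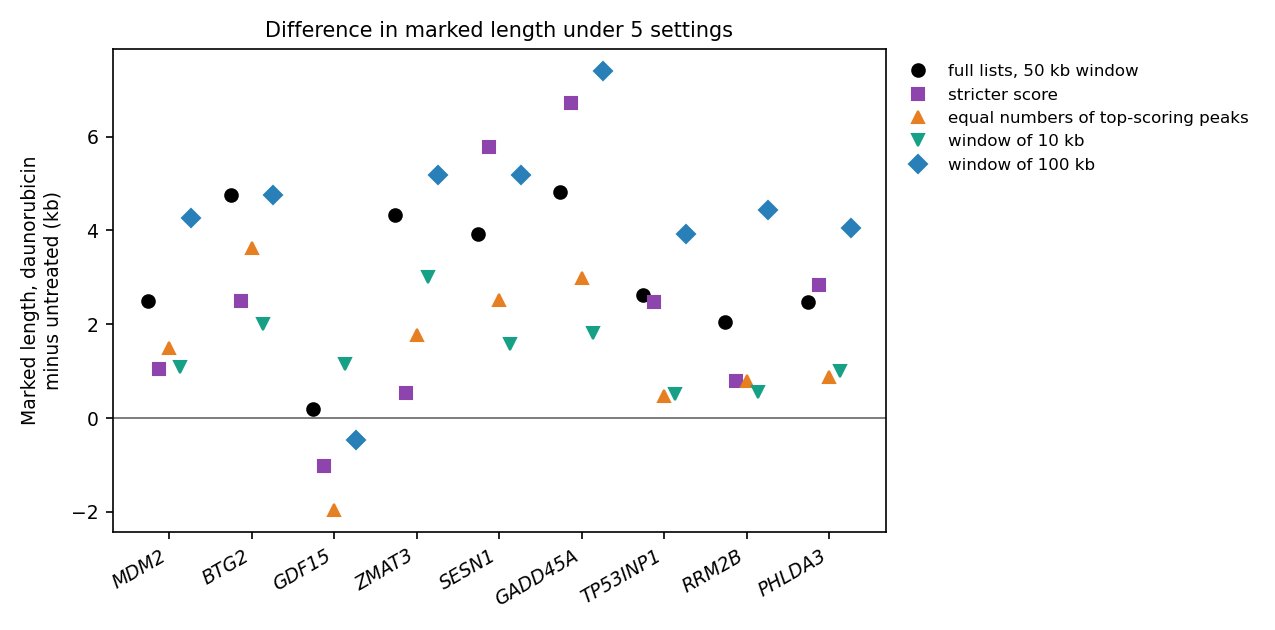
Difference in marked length, daunorubicin minus untreated, in kb (vertical axis), at each gene under 5 settings; each point is 1 setting. GDF15 is the only gene with points below 0, at -1017, -1959 and -463 bp.

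The other genes that p53 activates were read in the same way, from a list of 27. Of the 25 with a peak in either list, 24 had a longer marked length with daunorubicin and 1 a shorter one, and the median difference was 1628 bp. The share of all marked genes that were longer was 87.4%. The ratio was at least 1.5 at 11 of the 23 with an untreated peak, beside 37.1% of all such genes. CDKN1A, the CDK inhibitor p21 and best known p53 target, had 7600 bp against 4890 bp in untreated cells. Like PHLDA3 it had neither end of its annotated span marked in either list. Starts inside the span were not checked for the genes of this list, so an internal promoter of CDKN1A may be marked. The 4 with the largest differences were the proapoptotic PMAIP1 (13864 bp against 7496 bp), the death receptor gene TNFRSF10B (11118 bp against 6045 bp), ASCC3, a helicase gene (8927 bp against 3922 bp), and DRAM1, an autophagy gene (9443 bp against 5206 bp). Each of these 4 had an end marked in both libraries. The gene that was shorter was FDXR, the mitochondrial ferredoxin reductase, by a difference of -93 bp.

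Of 14 genes of the p53 family and its regulators, 11 were longer with daunorubicin and 2 shorter, and the 13 marked had a median difference of 1534 bp; the share of longer genes was no higher than the 87.4% of all marked genes. TP73 had 7589 bp against 6475 bp in untreated cells, with an end marked in both, and TP63 had no peak in either list. CREBBP, an acetyltransferase that deposits H3K27ac, had 9940 bp against 5439 bp, and EP300, its paralogue, 4720 bp against 5107 bp. USP7, a deubiquitinase of MDM2 and p53, had 9164 bp against 4988 bp, MDM4, which binds and restrains p53, 11707 bp against 7548 bp, and ATR, a damage kinase, 9925 bp against 6296 bp.

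Genes of other factors known to act at the p53 programme were longer with daunorubicin at 18 of 21 and shorter at 3. The median difference was 2178 bp, with a ratio of at least 1.5 at 8. Both counts were close to the shares of all genes, 87.4% and 37.1%. FOXO3, a forkhead factor restrained by AKT, had 17731 bp against 8893 bp in untreated cells. E2F1 had 13306 bp against 7777 bp, the stress factor ATF3 8879 bp against 3715 bp and NFKB1 6254 bp against 2537 bp. Others of the list differed less or the other way. ATF4 differed little, with 10186 bp against 10179 bp. SP1 had 13951 bp against 11946 bp, a difference of 2005 bp, near the median of the list. The 3 that were shorter with daunorubicin were CEBPB (6239 bp against 7068 bp), BRCA1 (11688 bp against 12262 bp) and HIF1A (2982 bp against 3319 bp). Of the AP-1 genes, JUN had 8582 bp against 5914 bp, FOS 10978 bp against 8523 bp and JUND 12801 bp against 10623 bp. Of the 21, ATF3 alone had neither end of its annotated span marked in either list. Its window held 10 peaks with daunorubicin and 4 without it, and starts inside the span were not checked.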

How the data were processed

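For each of the libraries there was 1 peak list. The submitters' processing notes name Bowtie2 2.3.4.3, deepTools 3.2.1, MACS2 2.1.1 and the builds hg19 and hg38. Not given in the sources used here: parameters, threshold, use of input and duplicate removal. The lists carry hg38 sequence names. The deposited value used is the score of each peak, whose formula no source states. Depth is unknown, since no counts are held.

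Gene positions came from RefSeq GRCh38.p14, coordinates are counted from 1, and promoter sequences and starts are RefSeq's. Overlaps, marked length and shares were computed in Python 3.11.15 (numpy 2.4.6, pandas 2.3.3, scipy 1.17.1). They were tested on simulated lists against bedtools 2.31.1, with 0 differences. The 4 libraries were grouped by antibody and treatment labels. Members and lists were chosen with earlier results of these data known, and the mismatch limit of the p53 full site was set after seeing the data. By rule the text names the members and neighbours with an end within 1 kb of a peak. From the other lists it took CDKN1A, TP63, TP73, MDM4 and up to 4 with the largest absolute difference; EP300, FDXR, ATF4, SP1, JUN, FOS, JUND, CEBPB, BRCA1, HIF1A, RRM2, GADD45G and the marker genes were named after their values were seen. Some items the rule covers are not reported here. The 7 alternatives tried changed score, list size, input, overlap, gap or window.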

Additional observations from a re-analysis of the deposited data

How the results depend on the processing

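The number of members with longer marked length was 8 or 9 under each setting tried, and GDF15 was the one that turned, at -1017 bp under the stricter score (at least 43 in both lists), -1959 bp with as many top-scoring peaks taken from each list and -463 bp at 100 kb. The share of all marked protein-coding genes that were longer was 78.6% with the stricter score and 65.3% with lists of equal size. For windows this share was 79.7% at 10 kb and 90.8% at 100 kb. The median difference over the members was 2470 bp with the stricter score and 1502 bp with lists of equal size. For windows it was 1157 bp at 10 kb and 4444 bp at 100 kb. Over all marked genes the medians in that order were 849, 400, 538 and 2276 bp. Peaks called only with daunorubicin numbered 22 under the stricter score, 12 with equal numbers of peaks, 53 with a reciprocal overlap of 50%, 19 in windows of 10 kb and 55 in windows of 100 kb. Peaks called only in untreated cells numbered 11 with equal numbers of peaks, 15 with a reciprocal overlap of 50%, 2 with a gap of 1 kb, 0 in windows of 10 kb and 9 in windows of 100 kb. With equal numbers of peaks the members thus had 12 unshared daunorubicin peaks and 11 unshared untreated peaks. That setting removes the lowest-scoring daunorubicin peaks by construction and brings the 2 counts close by itself. Removing peaks on input peaks changed none of these values. No input peak lay in any of the 9 windows, so that setting was hardly a check on them. The p53 full site was found at 3 members with at most 3 mismatches and at 1 with at most 2, a choice made after seeing the data. No paired analysis was possible because each condition had 1 library. Depth is unknown, and its part in the unshared peaks was not tested.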

Other observations

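Paralogues of the members, which are not all p53 targets, were longer with daunorubicin at 13 of 15 and shorter at 2. The median difference was 2217 bp, with a ratio of at least 1.5 at 8 of 15. Over all genes the shares were 87.4% and 37.1%, so the first count is near the background. BTG1, the close relative of BTG2, had 11636 bp against 3864 bp in untreated cells, and 9 peaks called only with daunorubicin. SESN3, a sestrin gene activated by FOXO factors, had 6104 bp against 1627 bp, and an end marked only with daunorubicin. GDF11, another TGF-beta family ligand, had 8336 bp against 4428 bp. RRM2, the S phase counterpart of RRM2B, had 4185 bp against 4427 bp, and GADD45G 972 bp against 973 bp, values given although both genes were named after they were seen.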
